A study of Homo sapiens with 12 samples.

Results

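The 9 genes described here are 8 keratins (KRT7, KRT8, KRT17, KRT18, KRT19, KRT34, KRT80 and KRT81) and vimentin (VIM). They were found by exact match of the gene name among the 58735 genes of the count table, and each name matched 1 gene. The cells were HK-2, immortalised human cells of the kidney's proximal tubule, so all samples came from 1 line. There were 12 samples, 3 in each of 4 groups. The control cells received water (H2O), and the others received for 48 h iohexol at 75 mg I/mL, an iodinated contrast medium, cisplatin at 5 μM, a platinum drug against tumours, or vancomycin at 4 mM, a glycopeptide antibiotic. The labels do not say whether the replicates were separate cultures, and p-values measure only the spread between these samples, which may be technical. Total counts per sample were between 14057282 and 18177109, and replicates of a group differed by more than sampling noise in every pair.

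Keratins and vimentin are proteins of the intermediate filaments, the ropelike part of the cytoskeleton that resists stretching. A keratin filament is built from pairs of unlike chains, 1 acidic type I chain with 1 basic type II chain, so a cell that makes filaments makes both kinds. Simple epithelia, such as those of the kidney tubule, are known for the pair of KRT8 (type II) and KRT18 (type I), with KRT7 (type II) and KRT19 (type I) in ducts and in many cultured lines. Vimentin is a type III chain that pairs with itself, and it is typical of mesenchymal cells and of epithelial cells grown in culture. KRT17 is a type I keratin of epithelial appendages and wounded skin, KRT34 (type I) and KRT81 (type II) are hair keratins, and KRT80 is a type II keratin of differentiating epithelia.

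The chains share the end of their central rod, and this stretch shows how close the members are at the level of the RNA. Each line gives, for 6 of the members, 45 coding bases, 5′ to 3′, read by translating the GENCODE release 29 transcripts. The 27 capital letters encode threonine, tyrosine, arginine, any residue, leucine, leucine, glutamate and the next residues. No KRT80 transcript held this pattern.
KRT7: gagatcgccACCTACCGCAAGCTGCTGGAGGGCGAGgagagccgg
KRT18: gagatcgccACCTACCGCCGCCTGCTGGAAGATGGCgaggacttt
KRT19: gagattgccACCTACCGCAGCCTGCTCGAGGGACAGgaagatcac
KRT17: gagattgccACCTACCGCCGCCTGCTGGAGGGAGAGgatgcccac
KRT81: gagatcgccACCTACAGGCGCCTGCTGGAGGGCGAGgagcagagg
KRT34: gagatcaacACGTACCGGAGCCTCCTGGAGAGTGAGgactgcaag
In the capital stretch these 6 differed from each other at 3 (KRT17 from KRT19 and from KRT81) to 9 (KRT18 from KRT34) of 27 bases. The 27 bases of KRT18 were also found in 9 other genes, among them pseudogenes of the same keratin. Those of KRT7 were found in 6 and those of KRT81 in 5, among them KRT86. Those of KRT17, KRT19 and KRT34 were found in no other gene.

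The drugs moved the keratins in different patterns. Cisplatin raised KRT8 and KRT18 together with KRT7, KRT19 and the hair keratins KRT34 and KRT81, and VIM fell. Vancomycin raised KRT8, KRT18, KRT19, KRT17 and VIM, and KRT7 and KRT80 fell. Iohexol raised KRT80, and VIM, KRT18 and KRT7 fell. In bulk RNA of a culture, fewer cells of a kind and less RNA per cell cannot be told apart. TMM factors scale the libraries so that most genes do not move, and with total counts alone the median of all genes moved to 0.23 on the log2 scale with cisplatin. No member called against control changed its direction under that scaling.

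Read against all genes tested, the counts were as follows, with a call at an adjusted p under 0.05 by edgeR's quasi-likelihood test. The counts are given for the 6 members tested with every drug (KRT7, KRT8, KRT18, KRT19, KRT80 and VIM). With iohexol, 1 of the 6 was higher and 3 were lower, where 11.2% and 9.77% of all genes tested were higher and lower. With cisplatin, 4 were higher and 1 was lower, where 29.2% and 30.6% of all genes were. With vancomycin, 4 were higher and 2 were lower, where 29.0% and 28.8% of all genes were. The median log2 fold change of these 6 was -0.32 with iohexol, 0.30 with cisplatin and 0.53 with vancomycin, beside 0.01, 0.01 and -0.01 for all genes tested. KRT34 and KRT81 were also tested and higher with cisplatin, and KRT17 with vancomycin, but these low genes passed the filter through the group where they were high.

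When a change above 1 on the log2 scale was also required, as for a differentially expressed gene (DEG), no member qualified with iohexol, 2 did with cisplatin (KRT34 and KRT81) and 2 with vancomycin (KRT17 and KRT80). Among all genes tested, 5.28%, 16.3% and 18.5% were DEGs. The 3 comparisons share the same control samples. A member was tested only when its counts passed the filter on low counts, which left out KRT17, KRT34 and KRT81 with iohexol, KRT17 with cisplatin, and KRT34 and KRT81 with vancomycin. A member with low counts could pass through the group where it was high.

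**Figure D1:**
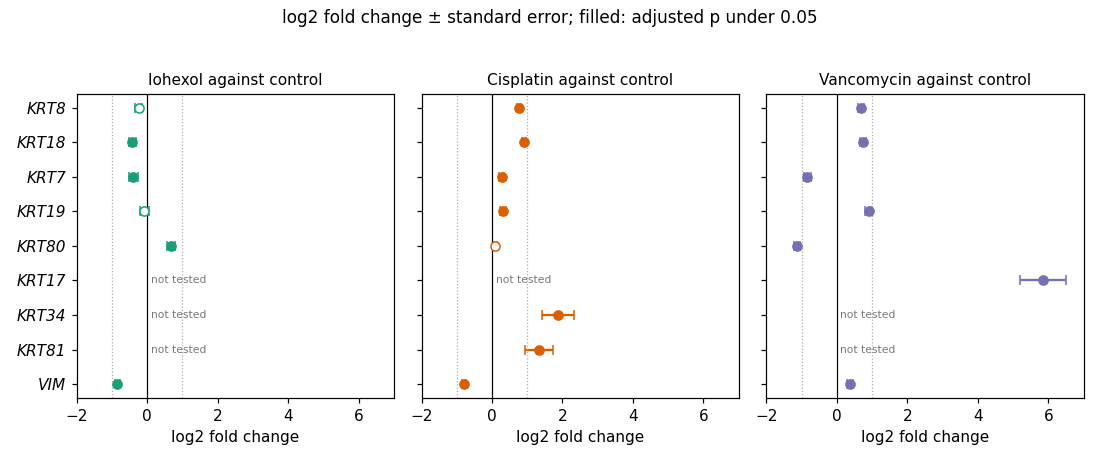
Each point is the log2 fold change of a gene against control (horizontal axis) with its standard error, from 3 samples a group, and filled points had an adjusted p under 0.05. KRT8 and KRT18 lie right of 0 with cisplatin and vancomycin and left of 0 with iohexol, where KRT8 did not pass the test; VIM lies left of 0 with iohexol and cisplatin and right of 0 with vancomycin.

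Levels of different genes were compared per kilobase, as CPM (counts scaled to the library's total and TMM factor) divided by the gene's length in the file, which joins all exons and so understates a gene with long or rarely used ones. In control cells VIM stood highest of the members at 122 ± 3.90 CPM per kb (SD, n = 3), which was rank 235 among all genes. KRT8 followed at 71.7 ± 5.18, KRT18 at 54.1 ± 2.75, KRT80 at 39.96 ± 1.74, KRT7 at 29.1 ± 2.18 and KRT19 at 18.7 ± 1.36. No neighbours in this order overlapped in their samples. KRT81 at 0.294 ± 0.169, KRT34 at 0.250 ± 0.186 and KRT17 at 0.0155 ± 0.0268 CPM per kb were far below, and KRT81 and KRT34 did not differ beyond their spread.

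The order changed with each drug. With iohexol, VIM (67.3 ± 3.47 CPM per kb), KRT80 (62.8 ± 8.88) and KRT8 (59.9 ± 7.09) overlapped in their samples. With cisplatin, KRT8 (123 ± 2.47) and KRT18 (101 ± 1.88) were both above VIM (70.6 ± 1.30). With vancomycin, VIM (163 ± 13.2) was again first, KRT19 (36.1 ± 1.54) rose to the fourth place and KRT80 (18.9 ± 0.47) fell to the fifth.

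KRT8 (ENSG00000170421, chromosome 12, 52897187 to 52949954, minus strand, GRCh38) was at 453, 517 and 512 CPM in the control samples and at 461, 414 and 363 CPM with iohexol. It was at 825, 847 and 859 CPM with cisplatin and at 796, 851 and 817 CPM with vancomycin. All 6 cisplatin and vancomycin samples were above all control samples, and the iohexol samples overlapped the controls. KRT8 thus had a log2 fold change of 0.77 (SE 0.06, adjusted p = 3.11e-09) with cisplatin and 0.69 (SE 0.08, adjusted p = 1.85e-07) with vancomycin. With iohexol it was -0.24 (SE 0.10, adjusted p = 0.112), and it passed the test in the fit of all 4 groups (-0.26, adjusted p = 0.0259) and without the filter on low counts (-0.28, adjusted p = 0.0325).

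KRT18 (ENSG00000111057, chromosome 12, 52948871 to 52952901, plus strand), the type I partner of KRT8, was at 166, 184 and 173 CPM in the control samples and at 141, 126 and 119 CPM with iohexol. It was at 319, 329 and 329 CPM with cisplatin and at 281, 319 and 297 CPM with vancomycin. Neither the iohexol samples, all lower, nor the other drug samples, all higher, overlapped the controls. On the log2 scale the fold change was -0.42 (SE 0.09, adjusted p = 0.00751) with iohexol, 0.90 (SE 0.06, adjusted p = 5.22e-10) with cisplatin and 0.74 (SE 0.09, adjusted p = 1.02e-07) with vancomycin.

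The direct contrasts between drugs, in the fit of all 12 samples, put KRT8 and KRT18 lower with iohexol than with either other drug. The log2 difference of iohexol minus cisplatin was -1.03 for KRT8 (SE 0.08, adjusted p = 2.46e-09) and -1.34 for KRT18 (SE 0.08, adjusted p = 3.18e-11). Between cisplatin and vancomycin, KRT8 differed by 0.04 (SE 0.08, adjusted p = 0.686) and KRT18 by 0.13 (SE 0.08, adjusted p = 0.169). With total counts in place of TMM factors these became 0.38 (adjusted p = 0.000453) and 0.46 (adjusted p = 2.9e-05). KRT18 also passed, at 0.18 (adjusted p = 0.0131), when only the cisplatin and vancomycin samples were fitted. Cisplatin was above vancomycin in each of these fits, and whether the difference passed depended on the fit.

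The ratio of KRT18 to KRT8 within a sample does not depend on the scaling between libraries. In counts per kb it was 0.784, 0.760 and 0.723 in the control samples, 0.655, 0.649 and 0.698 with iohexol, 0.826, 0.831 and 0.820 with cisplatin, and 0.754, 0.802 and 0.777 with vancomycin. The iohexol samples were below all the controls and the cisplatin samples above all the controls, and the vancomycin samples overlapped them. Its group means on the log2 scale were -0.40 in control, -0.58 with iohexol, -0.28 with cisplatin and -0.36 with vancomycin. The 2 genes lie next to each other on opposite strands and their gene models overlap by 1084 bases, and the strand setting of the counting is not given in the sources used here.

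**Figure D2:**
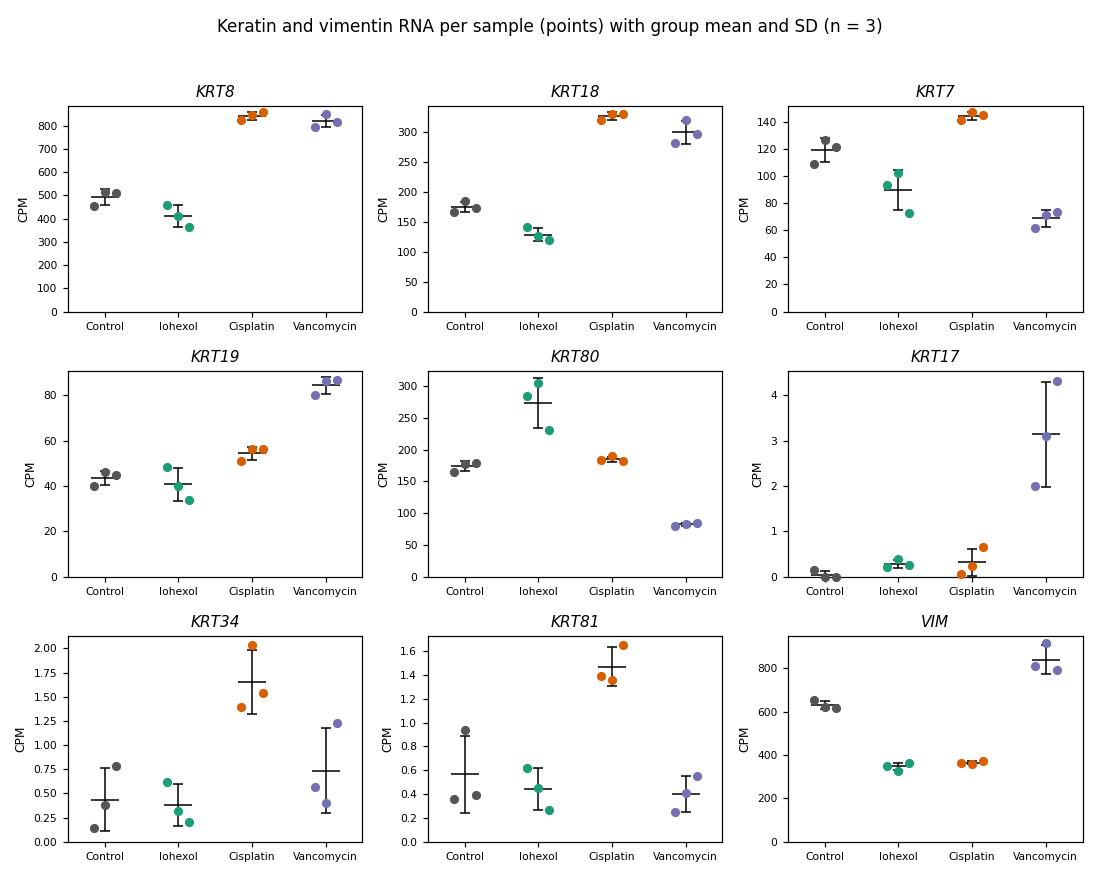
Each panel gives 1 gene's level in CPM (vertical axis, from 0), with a point for each sample of the 4 groups on the horizontal axis and the group mean and SD (n = 3) in black. KRT8 and KRT18 show the same shape, high with cisplatin and vancomycin, while KRT7 and KRT80 are lowest with vancomycin, KRT17 is high with vancomycin and KRT34 and KRT81 are high with cisplatin.

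KRT7 (ENSG00000135480, chromosome 12, 52232520 to 52252186, plus strand), a type II keratin of ducts, was at 109, 126 and 122 CPM in the control samples and at 93.3, 102 and 73.1 CPM with iohexol. It was at 141, 147 and 145 CPM with cisplatin and at 61.7, 71.04 and 73.7 CPM with vancomycin. None of the 3 drug groups overlapped the controls, and cisplatin was the only drug with values above them. KRT7 had a log2 fold change of 0.28 (SE 0.07, adjusted p = 0.00152) with cisplatin and -0.83 (SE 0.09, adjusted p = 6.85e-08) with vancomycin.

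The fall of KRT7 with iohexol, -0.39 on the log2 scale (SE 0.12, adjusted p = 0.0411), was close to the threshold. It no longer passed without control replicate 2 (adjusted p = 0.132), without control replicate 3 (adjusted p = 0.0916) or without iohexol replicate 1 (adjusted p = 0.0756). It also did not pass with total counts in place of TMM factors (adjusted p = 0.0879) or with at least 10 counts required in every sample (adjusted p = 0.0516).

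KRT19 (ENSG00000171345, chromosome 17, 41523617 to 41528308, minus strand), a short type I keratin without the usual tail, was at 40.1, 46.1 and 44.9 CPM in the control samples and at 48.4, 40.2 and 33.7 CPM with iohexol. It was at 51.1, 56.2 and 56.2 CPM with cisplatin and at 80.2, 86.3 and 86.6 CPM with vancomycin. The iohexol samples spread over and beyond the control range, and the other drug groups were wholly above it. For KRT19 the log2 fold change was 0.91 (SE 0.10, adjusted p = 2.34e-08) with vancomycin, 0.32 (SE 0.08, adjusted p = 0.00236) with cisplatin and -0.08 (adjusted p = 0.714) with iohexol. Vancomycin and cisplatin themselves differed, with cisplatin lower by a log2 difference of -0.63 (SE 0.11, adjusted p = 3.04e-05).

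KRT7 and KRT19 therefore moved the same way with cisplatin and opposite ways with vancomycin. KRT7 was higher with cisplatin than with vancomycin by 1.07 on the log2 scale (SE 0.11, adjusted p = 2.54e-08). It was also higher with iohexol than with vancomycin, by 0.38 (SE 0.11, adjusted p = 0.00449).

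KRT80 (ENSG00000167767, chromosome 12, 52168996 to 52192000, minus strand) was at 165, 178 and 179 CPM in the control samples and at 284, 306 and 230 CPM with iohexol. It was at 184, 189 and 182 CPM with cisplatin and at 80.0, 83.0 and 83.8 CPM with vancomycin. It was the member with the widest spread between drugs among those expressed well, with every iohexol sample above and every vancomycin sample below all others. Its log2 fold change was 0.67 with iohexol (SE 0.11, adjusted p = 0.00104) and -1.12 with vancomycin (SE 0.09, adjusted p = 9.72e-11). The direct log2 difference of iohexol minus vancomycin was 1.73 (SE 0.09, adjusted p = 3.78e-12).

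With cisplatin, KRT80 had a log2 fold change of 0.09 (SE 0.06, adjusted p = 0.209), although its 3 samples lay just above the control samples. With total counts in place of TMM factors this value was 0.31 (adjusted p = 0.000231). The cisplatin samples had TMM factors of 1.12 to 1.13, against 0.961 to 0.976 in the controls.

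The other members had few counts. KRT17 (ENSG00000128422, chromosome 17, 41619441 to 41624842, minus strand) had 2, 0 and 0 counts in the control samples, 3, 6 and 4 with iohexol, 1, 4 and 11 with cisplatin and 32, 46 and 70 with vancomycin. Every vancomycin sample was above all others. The ratio of summed counts, 148 against 2 and scaled by the libraries, was 70.7 with a 95% exact interval of 19.2 to 589, which covers counting error only. The test gave an adjusted p of 4.73e-08, with a fitted log2 fold change of 5.86 that depends on the prior count.

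With iohexol and cisplatin KRT17 was too low to be tested in the separate fits. The ratios of summed counts to control were 6.48 (interval 1.47 to 59.1) and 7.23 (interval 1.70 to 64.8). In the fit of all 4 groups, where vancomycin carried the gene past the filter, the adjusted p was 0.0992 with iohexol and 0.0408 with cisplatin. At its level with vancomycin, 1.00 ± 0.369 CPM per kb, KRT17 remained far below KRT19 and KRT18, the expressed type I keratins.

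KRT34 (ENSG00000131737, chromosome 17, 41377650 to 41382403, minus strand), a hair keratin, had 2, 6 and 12 counts in the control samples, 9, 5 and 3 with iohexol, 23, 33 and 26 with cisplatin and 9, 6 and 20 with vancomycin. The cisplatin samples were above all others. The log2 fold change with cisplatin was 1.88 (SE 0.45, adjusted p = 0.00156). The difference of cisplatin from vancomycin, 1.15 (SE 0.47, adjusted p = 0.039), no longer passed without any 1 of cisplatin replicates 1, 2 and 3 or vancomycin replicates 1 and 2, with adjusted p between 0.0523 and 0.155.

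KRT81 (ENSG00000205426, chromosome 12, 52285913 to 52291534, minus strand), a type II hair keratin, had 5, 15 and 6 counts in the control samples, 9, 7 and 4 with iohexol, 23, 22 and 28 with cisplatin and 4, 6 and 9 with vancomycin. The cisplatin samples were again above all others. The log2 fold change with cisplatin was 1.34 (SE 0.40, adjusted p = 0.00871), and the difference of cisplatin minus vancomycin was 1.84 (SE 0.46, adjusted p = 0.00159). KRT81 lies within the gene model of KRT86, on the opposite strand, and 52.4% of its 31-base sequences also occur in another gene, 42.5% in KRT86 itself. KRT86 had 6 to 19 counts in every sample and a log2 fold change of -0.02 (adjusted p = 0.975) with cisplatin.

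VIM (ENSG00000026025, chromosome 10, 17228259 to 17237593, plus strand), the filament gene of mesenchyme, was at 654, 619 and 618 CPM in the control samples and at 351, 328 and 363 CPM with iohexol. It was at 364, 357 and 371 CPM with cisplatin and at 810, 918 and 791 CPM with vancomycin. No drug group overlapped the controls, with iohexol and cisplatin below and vancomycin above. VIM had a log2 fold change of -0.84 (SE 0.08, adjusted p = 1.83e-05) with iohexol, -0.79 (SE 0.05, adjusted p = 1.02e-09) with cisplatin and 0.37 (SE 0.08, adjusted p = 0.000601) with vancomycin.

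Between iohexol and cisplatin VIM differed by -0.07 (SE 0.07, adjusted p = 0.447), or by -0.20 (adjusted p = 0.0228) with total counts in place of TMM factors. Both were below vancomycin, with log2 differences of -1.27 (SE 0.07, adjusted p = 1.90e-11) for iohexol and -1.205 (SE 0.07, adjusted p = 2.37e-11) for cisplatin. The antisense gene VIM-AS1, which overlaps VIM by 1727 bases, had 30 to 53 counts with cisplatin and 10 or 11 in the control samples, few beside the 5807 to 6278 counts of VIM with cisplatin.

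Marker lists of mesenchyme and of epithelium in general both had higher sums with vancomycin, where VIM was higher. The 9 mesenchymal markers of the list, VIM left out, summed to between 116 and 130 CPM in control cells and between 244 and 280 CPM with vancomycin. With iohexol they summed to between 108 and 118 CPM and with cisplatin to between 106 and 110 CPM. With vancomycin COL1A1, DCN and LUM rose and THY1 did not pass, where 29.0% of all genes tested rose. PDGFRB and ACTA2 also rose, but these low genes passed the filter through the group where they were high. With cisplatin COL1A1 rose and DCN and LUM fell, and with iohexol DCN fell, while VIM fell with both. PDGFRB with cisplatin and THY1 with both drugs also rose, but from 8 to 10 and 7 to 13 counts in control. Such low genes could pass the filter through the group where they were high. COL3A1 had at most 3 counts in every sample, COL1A2 at most 5 and PDGFRA at most 4. The highest group means of PDGFRB, ACTA2 and THY1 were 1.36, 1.68 and 1.62 CPM. The sums thus came mostly from LUM, COL1A1 and DCN, at 79.8, 30.6 and 12.3 CPM in control cells. The 6 general epithelial markers summed to between 167 and 189 CPM in control cells, between 248 and 293 CPM with iohexol, between 125 and 132 CPM with cisplatin and between 326 and 382 CPM with vancomycin, where CDH16 and CLDN4 rose and EPCAM fell. With vancomycin CLDN4 was at 233 CPM, the highest of these 6, against 53.5 CPM in control cells. CDH16 was at 33.0 against 11.4 CPM and EPCAM at 76.9 against 101 CPM. The part of both marker lists in the result for VIM was not tested.

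In the contrasts between drugs all 9 members were tested, but KRT17, KRT34 and KRT81 passed the filter through the group where they were high. Of the other 6, all but VIM differed between iohexol and cisplatin, and all differed between iohexol and vancomycin. All but KRT8 and KRT18 differed between cisplatin and vancomycin. Among all genes tested in that fit, 54.0% differed between iohexol and cisplatin, 56.6% between iohexol and vancomycin and 64.7% between cisplatin and vancomycin. Of the 3 low genes, KRT17 did not pass between iohexol and cisplatin, nor did KRT34 and KRT81 between iohexol and vancomycin.

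The make-up of the keratin RNA changed with the drug. As shares of the 8 keratins' summed counts per kb, KRT8 and KRT18 held 33.5% ± 0.50 and 25.3% ± 0.66 in the control samples (SD, n = 3). They held 29.6% ± 1.11 and 19.8% ± 1.32 with iohexol, where KRT80 held 31% ± 1.86 against 18.7% ± 0.42 in control. With cisplatin the pair held 37.5% ± 0.30 and 31% ± 0.05, and with vancomycin 41.8% ± 0.68 and 32.5% ± 0.72. KRT7 and KRT80 held 5.88% ± 0.36 and 6.63% ± 0.19 in the vancomycin samples, and KRT19 held 12.6% ± 0.24 there against 8.72% ± 0.11 in control.

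**Figure D3:**
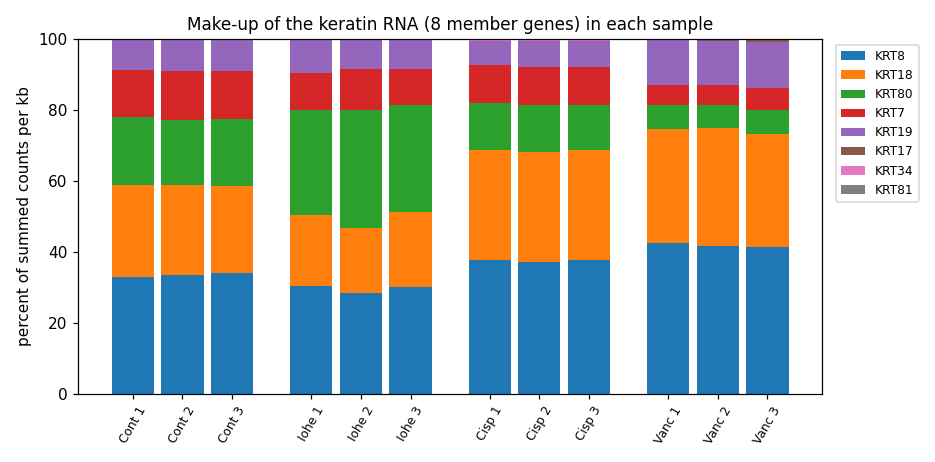
Each bar is 1 sample and its colours give the percent of the summed counts per kb of the 8 keratins that each gene held, with the sample's group shortened under the bar. KRT80 holds a larger share in the iohexol bars than in those of any other group, and KRT8 with KRT18 hold the largest joint share in the vancomycin bars.

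Summed over the 8 genes, the keratins were at 1006 ± 63.0 CPM in the control group, 946 ± 111 with iohexol, 1557 ± 29.2 with cisplatin and 1360 ± 56.4 with vancomycin. The ratio of type I to type II keratins in counts per kb lay between 0.505 and 0.527 in control cells, between 0.363 and 0.418 under iohexol, between 0.617 and 0.628 under cisplatin and between 0.821 and 0.857 under vancomycin. The 4 groups did not overlap in it. The ratio was highest with vancomycin, where the type II genes KRT7 and KRT80 were low and the type I gene KRT19 was high. Its own value rests on the gene lengths in the file, so it is compared only between groups.

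VIM relative to the 8 keratins, in counts per kb, was 0.535 to 0.635 in the control samples and 0.534 to 0.598 with vancomycin, and these ranges overlapped. It was 0.299 to 0.401 with iohexol and 0.209 to 0.221 with cisplatin. With iohexol the ratio was low while the summed keratins overlapped the control level within their SD, and with cisplatin VIM was low and the keratins were high.

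**Figure D4:**
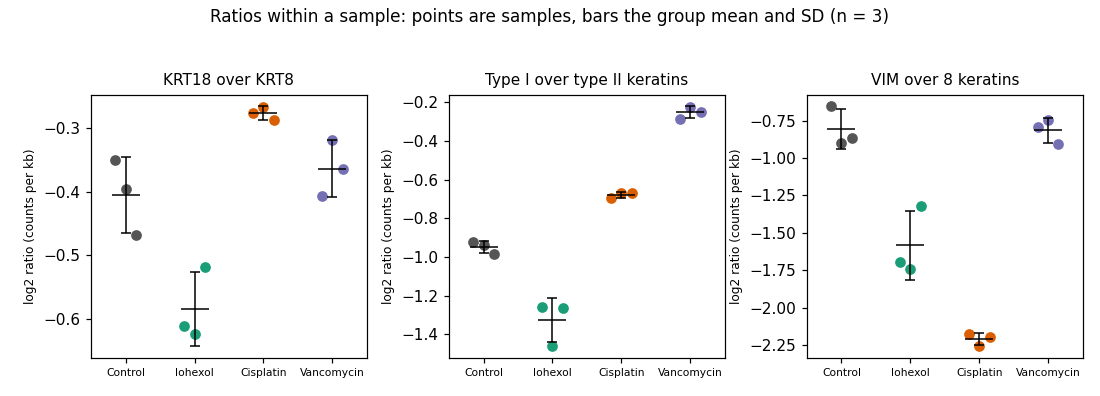
The panels give the log2 of 3 ratios of counts per kb (vertical axes) in each sample of the 4 groups, with the group mean and SD (n = 3) in black. The type I to type II ratio separates all 4 groups, and the ratio of VIM to keratins is lowest with cisplatin and overlaps between control and vancomycin.

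Among 55 protein coding keratin genes in the table, 16 had 0 counts in all 12 samples and 44 had fewer than 100 counts in the 12 together. The 8 keratins described held 95.9% to 98.1% of all counts on keratin genes in every sample. Of the other 47, KRT10, KRT15 and KRT86 were tested with each drug and KRT16 with vancomycin only. KRT10, a type I keratin of the upper epidermis, was at 16.96 ± 0.73 CPM in control and 47.1 ± 2.89 CPM with vancomycin (log2 fold change 1.43, SE 0.11). KRT15, a type I keratin of basal cells, rose by 1.02 with cisplatin (SE 0.18, adjusted p = 0.000112) and by 0.72 with vancomycin (SE 0.21, adjusted p = 0.00502).

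KRT16, a type I keratin of wounded skin, was low, with 1 to 8 counts in control samples and 15 to 23 with vancomycin. It passed the filter through the vancomycin group, where it rose by 2.32 on the log2 scale (SE 0.58, adjusted p = 0.00159). KRT86 did not pass with any drug, and KRT10 and KRT15 did not pass with iohexol (adjusted p = 0.0905 and 0.0668). KRT1, KRT5 and KRT14, the main keratins of stratified epithelium, had at most 3 counts in every sample. With cisplatin KRT7, KRT8, KRT10, KRT15, KRT18 and KRT19 were called higher, and KRT80 and KRT86 were not called. KRT34 and KRT81 were also higher, but these low genes passed the filter through that group. Among all genes tested with cisplatin, 29.2% were higher and 30.6% lower. With vancomycin KRT7 and KRT80 were the only keratins called lower, where 28.8% of all genes tested were.

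Reads on KRT8 and KRT18 can also be placed on their many processed pseudogenes, copies without introns. The 50 KRT8 pseudogenes in the table held 1.02% to 2.98% of the KRT8 count in each sample and the 67 KRT18 pseudogenes 0.490% to 2.55% of the KRT18 count. Of the 31-base sequences of KRT18, 35% occur in another gene, as do 25.3% of those of KRT8, 23.2% of VIM, 22.5% of KRT17 and 21.8% of KRT34. KRT80 (1.30%), KRT19 (6.42%) and KRT7 (7.43%) share the least. KRT7 overlaps the antisense gene KRT7-AS, which had 13 to 24 counts in the control samples and 3 or 4 with vancomycin, where KRT7 also was lowest.

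The promoter table of RefSeq (GRCh38.p14) held 3 of the 9 members. The RefSeq start, 41382306 for KRT34 and 17228241 for VIM, differs from that of the counted gene model, 41382403 and 17228259. Most of the KRT34 stretch thus lies inside that gene model. For KRT8 the RefSeq start is 52926469 and the counted gene model starts at 52949954. The KRT8 stretch searched therefore lies wholly inside the counted gene model. The 100 bases before the RefSeq start are shown for KRT34 and VIM, which moved in opposite directions with cisplatin, with the motif found in capitals.
KRT34, chr17:41382307-41382406, minus strand: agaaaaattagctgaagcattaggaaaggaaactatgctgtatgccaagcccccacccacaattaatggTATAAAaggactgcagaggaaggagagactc
VIM, chr10:17228141-17228240, plus strand: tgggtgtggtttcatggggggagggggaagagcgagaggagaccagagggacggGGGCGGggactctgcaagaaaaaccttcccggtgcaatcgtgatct
The KRT34 piece holds TATAAA, 31 to 26 bases before the start, a match in 10.7% of 35116 promoters of 250 bases on either strand. The VIM piece holds GGGCGG, 46 to 41 bases before the start, a match in 42.6%. The other motifs searched were TGANTCA (6.57% of promoters), TGACGTCA (1.65%) and CACGTG (6.34%). KRT8 held none of the 5 in the 250 bases before its RefSeq start, which is not the start of the counted gene model. A match is only a description of the letters.

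Of 14 other intermediate filament genes, 11 were tested with iohexol (1 higher, 4 lower), 11 with cisplatin (5 higher, 2 lower) and 12 with vancomycin (3 higher, 5 lower). In these comparisons 11.2%, 29.2% and 29.0% of all genes tested were higher and 9.77%, 30.6% and 28.8% were lower. The lamins LMNA, LMNB1 and LMNB2 form the lattice under the nuclear envelope. LMNB1 fell with all 3 drugs, by 0.58 with iohexol, 1.15 with cisplatin and 1.00 with vancomycin on the log2 scale, beside a rise of LMNA of 0.60 (SE 0.09) with vancomycin. The light neurofilament gene NEFL also fell with all 3, with log2 fold changes of -0.67, -1.198 and -1.03.

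NES (nestin), which assembles with vimentin, fell by 0.70 with iohexol (SE 0.15, adjusted p = 0.00549) as VIM did, and rose by 0.43 with cisplatin (SE 0.09, adjusted p = 0.000407), where VIM fell. DES (desmin), the muscle relative of vimentin, was at 0.530 ± 0.18 CPM in control and 6.37 ± 2.01 CPM with vancomycin, a log2 fold change of 3.52 (SE 0.33). DES, 1 of the 3 genes counted higher with vancomycin, had 5 to 11 counts in control and passed the filter through the vancomycin group. NEFM rose by 1.72 with cisplatin, NEFH fell by 1.26 with vancomycin and BFSP1, a lens filament gene, rose by 1.45 with iohexol, the largest changes called for this list in those directions.

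Plakins are the linkers that tie filaments to desmosomes and to other parts of the cytoskeleton. Of 19 plakin and desmosome genes, 14 were tested with iohexol (3 higher, 3 lower), 14 with cisplatin (4 higher, 5 lower) and 15 with vancomycin (2 higher, 8 lower), beside the same shares of all genes as for the filament genes. PLEC (plectin), at 1285 ± 225 CPM in control, fell by 0.51 with iohexol and 0.64 with vancomycin on the log2 scale. With cisplatin it was at 1109 ± 12.5 CPM, a fall of 0.21 (SE 0.08, adjusted p = 0.0386) close to the threshold. Under total counts the median of all genes moved by a similar size with cisplatin, to 0.23. DSP (desmoplakin), which anchors keratin at desmosomes, fell by 1.26 with vancomycin (SE 0.10) and by 0.31 with iohexol (SE 0.08), and its log2 fold change was 0.15 (SE 0.06, adjusted p = 0.0402) with cisplatin.

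JUP (plakoglobin) rose by 0.58 with iohexol and 0.52 with cisplatin and fell by 0.28 with vancomycin. EVPL (envoplakin) fell by 1.40 with vancomycin and rose by 0.74 with cisplatin. MACF1 fell by 1.14 with vancomycin, and PPL (periplakin) rose by 1.37 with iohexol. PKP1 (plakophilin 1) rose with vancomycin from 0.153 ± 0.070 to 2.46 ± 0.32 CPM, and PKP4 fell by 0.96 with cisplatin. PKP1, 1 of the 2 genes counted higher with vancomycin, had 1 to 3 counts in control and passed the filter through the vancomycin group. With vancomycin 8 of the 15 genes tested were thus lower, where 28.8% of all genes tested were, while KRT8, KRT18 and KRT19 were higher.

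Of 17 regulators of epithelial and mesenchymal identity, 12 were tested with iohexol (2 higher, 0 lower), 13 with cisplatin (6 higher, 5 lower) and 12 with vancomycin (6 higher, 4 lower), beside the shares of all genes given for the filament genes. KLF4 and ELF3, transcription factors of epithelia, rose with all 3 drugs, KLF4 by 0.98, 1.92 and 1.73 on the log2 scale and ELF3 by 0.49, 0.30 and 0.56. SNAI2, a repressor of epithelial genes, rose by 2.76 with vancomycin (SE 0.13), from 6.42 ± 0.38 to 45.0 ± 2.11 CPM. KLF5 rose by 1.00 with cisplatin and fell by 0.99 with vancomycin. GRHL3, 1 of the 6 genes counted higher with cisplatin, had 3 to 9 counts in control and passed the filter through the cisplatin group. GRHL1 fell by 1.66 with vancomycin, and the splicing factor ESRP1 fell by 2.65 with cisplatin.

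The label of the cells was read against marker lists, whose part in the results was not tested. The 11 proximal tubule markers summed to between 232 and 274 CPM in control cells, between 237 and 269 CPM with iohexol, between 193 and 211 CPM with cisplatin and between 451 and 478 CPM with vancomycin. These sums came mostly from GGT1 and MME, at 190 and 62.8 CPM in control cells and 147 and 101 CPM with iohexol. They were at 169 and 29.3 CPM with cisplatin and at 363 and 93.1 CPM with vancomycin. No other marker of that list had a group mean above 4.81 CPM. LRP2 and SLC22A6, defining genes of the proximal tubule, had at most 3 counts in every sample. CDH1, the main epithelial cadherin, was at 0.213 ± 0.25 CPM in control, and EPCAM at 101 ± 6.06 CPM. The 5 leukocyte markers summed to at most 5.76 CPM and the 4 endothelial markers to at most 4.21 CPM in any sample.

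For each member the genes with the most similar levels were found among 10060 genes with a mean of at least 10 CPM, by Pearson's r of log2 CPM over the 12 samples. The samples fall into 4 groups and share their libraries, so these values describe the pattern over groups. IER5 was the nearest gene to both KRT8 (r = 0.995) and KRT18 (r = 0.993), followed by PSMD8 for KRT8 and DYNLL1 for KRT18. GOLM1 was nearest to VIM (r = 0.991) with ARPC2 next, MRPL52 to KRT19 (r = 0.995) with SRSF9 next, UNG to KRT7 (r = 0.981) with TOR4A next, and DENND3 to KRT80 (r = 0.980) with NAA40 next. The low members had looser neighbours, SIRT7 and SNHG5 for KRT17 (r = 0.95 for SIRT7), LDB1 and ENGASE for KRT34 (r = 0.956 for LDB1) and GTPBP3 and AP1M1 for KRT81 (r = 0.965 for GTPBP3).

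Among the members themselves, KRT8 and KRT18 followed each other most closely over the 12 samples (r = 0.99). KRT80 ran opposite to VIM (r = -0.87) and to KRT19 (r = -0.86). KRT7 had r = 0.80 with KRT81 and r = -0.69 with KRT17.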

How the data were processed

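RNA of 12 HK-2 samples was sequenced after poly(A) selection. The authors deposited whole-number read counts per gene, without normalization, and gene lengths. The submitters' processing notes name CASAVA 1.8, fastp, HISAT2 2.0.5, featureCounts 1.5.0-p3 and DESeq2 1.20.0. The strand setting and annotation release are not given in the sources used here. Positions matched GRCh38.

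Counts were tested with edgeR 4.0.16 in R 4.3.3 (TMM, filterByExpr with a minimum count of 10 and a total of 15, glmQLFit, glmQLFTest), each drug separately against the 3 controls. Drugs were compared by contrasts in 1 model of the 12 samples. Benjamini-Hochberg adjustment ran over all genes tested (15657 with iohexol, 15876 with cisplatin, 15819 with vancomycin, 17073 between drugs). Standard errors are the log2 fold change over the square root of F. At these totals 3 counts are 0.165 to 0.213 CPM, for counting error only.

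All members are named, and from other lists genes called with all 3 drugs, those with the largest called changes and the most abundant, where they bear on the members. Members and lists were chosen with earlier results of these data known. The steps were tested on simulated counts. Alternatives were DESeq2 1.42.0, limma-voom (limma 3.58.1), RLE or no TMM factors, other filters, a fit of all groups, a replicate block and leaving out each sample. Sequence steps used Biopython 1.88, and figures matplotlib 3.10.9. The rod-end pattern was loosened after a stricter one had been tried. Protein sequences were not analysed here. Some sequences are not reported here.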

Additional observations from a re-analysis of the deposited data

How the results depend on the processing

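Of 747 values of single members under an alternative, 724 kept their direction and their side of the threshold, 11 no longer passed, 7 newly passed and 5 changed sign. The sign changes were in values that did not pass the test and came from leaving out 1 sample. The log2 fold change of KRT19 with iohexol ranged from -0.225 to 0.0409, that of KRT17 for iohexol minus cisplatin from -0.64 to 0.88, and that of KRT81 for iohexol minus vancomycin from -0.17 to 0.44. The calls lost or gained are given beside the results, for KRT7 and KRT8 with iohexol, KRT80 with cisplatin, KRT34 between cisplatin and vancomycin, and VIM, KRT8 and KRT18 between drugs. The cause was not tested. With total counts in place of TMM factors the middle value over all genes tested became 0.08 (log2) with iohexol, 0.23 with cisplatin and -0.08 with vancomycin, and members called lower with iohexol became 2 of 3. In raw counts the log2 type I to type II ratio with vancomycin differed from control by 0.52 in place of 0.70.

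The replicate numbers are shared by all groups, but same-numbered samples did not deviate together (mean correlation -0.02 over 18 pairs, range -0.18 to 0.10). Samples with different numbers had a mean correlation of 0.01 over 36 pairs. Whether same-numbered samples shared a culture or batch is not given by the labels. With the replicate number as a block, KRT7 with iohexol did not pass (-0.40, adjusted p = 0.0655), and no other member changed its call. Depth limits KRT17, KRT34 and KRT81, where a few counts decide the level.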
